A study of Homo sapiens with 28 samples.

Results

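NF-kB, the family of inducible transcription factors through which B cells answer antigen, cytokines and stress, was followed through its 5 subunits, its inhibitors and a set of genes it is known to induce. The class called inhibitors also takes in feedback genes and the nuclear IkB proteins BCL3 and NFKBIZ. The list held 37 genes chosen for their place in the pathway, with earlier results of these data known. The members measured were those whose symbol the platform's annotation gave to a probe. A probe of 1 gene symbol was found for 32 of the 37, with 43 of the array's 47231 probes between them, among 18811 genes with such a probe. NFKBIE, BIRC3, TNFAIP2, PIM2 and EBI3 were not analysed here. Where a gene had several probes, the brightest one that passed the detection filter represented it.

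Both cell lines, JeKo-1 and Z138, are established cultures of malignant B cells from human mantle cell lymphoma. RNA from 12 groups was read on 28 bead arrays in 3 experiments, with every compound dissolved in DMSO. The first followed JeKo-1 under ONC201, which is known to switch on CLPP, a protease of the mitochondrial matrix. Wells were taken before treatment (0 h) and at 12, 24 and 36 h, each time in 3 wells, and the labels state no dose. The second gave 5 µM ONC201 or DMSO alone for 24 h to parental Z138 and to a derivative resistant to the compound, each in 2 wells. How the resistant cells were obtained is not given in the sources used here. The third exposed JeKo-1 to tunicamycin at 1 µM (12 or 24 h) or rapamycin at 10 nM (24 h), with DMSO wells at 24 h as the control, also in 2 wells each. Tunicamycin blocks N-linked glycosylation and so burdens the endoplasmic reticulum with misfolded protein, and rapamycin inhibits the kinase complex mTORC1. Within an experiment, all wells of a line go back to 1 stock culture, so p-values speak only to well-to-well spread, which may be technical. Each experiment lay on a chip of its own, with the arrays placed in the order of the groups, so that group and place on the chip cannot be told apart.

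In resting cells the NF-kB dimers are held in the cytoplasm by inhibitors of the IkB family. Signals that activate the IkB kinase lead to the destruction of these inhibitors, and the freed dimers of NFKB1, RELA and REL enter the nucleus, while a slower alternative pathway processes the NFKB2 precursor and frees dimers with RELB. Among the genes switched on are the inhibitor NFKBIA and the ubiquitin-editing enzyme TNFAIP3, which close the loop again, and the pathway is known as a survival signal in many mantle cell lymphomas.

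The promoters of 4 members on which the results turn are printed here, because 3 of them (NFKBIA, BCL3 and CD83) were among the genes lower under tunicamycin and the last (PLEK) was the member with the largest rise. The sequences are from RefSeq, build GRCh38.p14, from 250 bases before to 50 bases after a gene's start, written 5′ to 3′ on the gene's own strand. Capitals mark matches, on either strand, to the NF-kB consensus decamer, a motif of 10 bases with degenerate positions, and overlapping matches run together into 1 stretch. The windows are NFKBIA at chr14:35404700-35404999 (minus strand), BCL3 at chr19:44748458-44748757 (plus strand), CD83 at chr6:14117522-14117821 (plus strand, the one of its windows that holds a match) and PLEK at chr2:68365032-68365331 (plus strand).
NFKBIA: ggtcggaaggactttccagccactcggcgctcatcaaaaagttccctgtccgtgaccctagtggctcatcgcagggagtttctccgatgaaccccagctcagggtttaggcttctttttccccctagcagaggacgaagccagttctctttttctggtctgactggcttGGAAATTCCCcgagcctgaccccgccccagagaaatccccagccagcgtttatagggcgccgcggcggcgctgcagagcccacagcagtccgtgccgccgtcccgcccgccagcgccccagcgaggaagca
BCL3: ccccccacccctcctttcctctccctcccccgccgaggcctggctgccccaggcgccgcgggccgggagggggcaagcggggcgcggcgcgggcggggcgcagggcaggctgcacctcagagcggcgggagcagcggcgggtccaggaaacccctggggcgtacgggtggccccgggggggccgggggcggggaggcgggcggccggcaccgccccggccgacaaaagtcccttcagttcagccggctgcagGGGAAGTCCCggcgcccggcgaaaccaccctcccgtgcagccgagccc
CD83: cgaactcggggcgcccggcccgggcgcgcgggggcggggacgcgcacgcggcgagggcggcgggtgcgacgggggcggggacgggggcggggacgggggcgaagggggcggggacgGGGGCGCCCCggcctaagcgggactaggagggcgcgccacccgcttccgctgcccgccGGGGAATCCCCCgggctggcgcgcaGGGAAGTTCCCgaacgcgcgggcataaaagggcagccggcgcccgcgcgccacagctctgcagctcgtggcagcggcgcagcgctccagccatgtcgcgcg
PLEK: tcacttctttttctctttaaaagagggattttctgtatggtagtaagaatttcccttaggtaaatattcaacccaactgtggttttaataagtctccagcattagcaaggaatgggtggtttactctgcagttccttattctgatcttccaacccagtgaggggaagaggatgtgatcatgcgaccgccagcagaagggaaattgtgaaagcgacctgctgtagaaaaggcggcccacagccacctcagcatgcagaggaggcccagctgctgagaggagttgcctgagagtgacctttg
The NFKBIA window holds 1 match, from base -81 to -72 against the start. BCL3 has 1 match at bases 3 to 12, and CD83 has 3 stretches between bases -134 and -41. The PLEK window holds none. The printed genes do not stand for all members called with tunicamycin at 24 h. CCL3L3, the largest measured fall, and CCL3, TNFAIP8, CD44 and ICAM1 were lower without a match in any window. NFKB2, REL, NFKBIZ, TNFAIP3, TRAF3 and LTA were lower with a match in at least 1 window. RELB and IER3 were lower and had no window in the table, and PIM1 rose without a match. Whether a match goes with a change was not tested. Of the 37 members, 32 had a window in the table, and 18 of these 32 genes (56.2%) had a match in at least 1 window, against 3619 of all 27305 genes (13.3%). Counted by window, 21 of 51 member windows (41.2%) and 3956 of all 35116 windows (11.3%) held a match. By role, 3 of 4 subunits, 6 of 6 inhibitors, 3 of 8 adaptor and survival genes, 5 of 9 cytokines and 1 of 5 surface and other genes had one. A match is a description of the letters in this window, and the members were listed as NF-kB genes to begin with.

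An array detected 29.7% to 35.2% of its probes (detection p under 0.01), with a median signal between 47.5 and 68.7 intensity units. The number of arrays limits the precision. The B cell genes MS4A1, CD79A and CD79B were detected on all 28 arrays and CD22 on 18 of 20 JeKo-1 and 4 of 8 Z138 arrays. Of the mantle cell lymphoma genes, SOX11 was detected on all 28 arrays, the CCND1 probe on all 8 Z138 and 0 of 20 JeKo-1 arrays, and CD5 on 0 arrays. The T cell genes CD3D and CD3E, the myeloid gene LYZ and the epithelial gene EPCAM were detected on 0 arrays, while CD68, which B cells can also express, was detected on 18 of 20 and 8 of 8. The other genes of these lists were detected on some arrays. The T cell gene CD2 was seen on 3 of 20 JeKo-1 and 1 of 8 Z138 arrays and the myeloid gene CD14 on 5 and 2. The myeloid gene CSF1R was seen on 1 and 0, and the epithelial gene KRT8 on 2 and 0. Of 21 marker genes listed for B cells, mantle cell lymphoma, plasma cells and other cell types, 1 of 9 tested was higher and 4 were lower with ONC201 at 24 h in JeKo-1 (19.9% and 18.5% of all genes). In parental Z138, 3 of 11 were higher and 3 lower (22.8% and 21.9% of all genes). With tunicamycin at 24 h, 1 of 11 was higher and 2 were lower (17.2% and 15.3%), and with rapamycin 4 were higher and 1 was lower (12% and 12.6%). In resistant Z138, 0 of 11 passed limma's threshold (0.106% of all genes higher and 0.381% lower). There, 2 had an unadjusted p under 0.05, a threshold at which the share of all genes was not computed. MS4A1, the CD20 antigen, changed by -1.13 ± 0.11 with ONC201 at 24 h in JeKo-1, -1.61 ± 0.15 in parental Z138, -0.78 ± 0.19 with tunicamycin at 24 h and 0.89 ± 0.19 with rapamycin (log2 ± SE). CD79A changed by -0.65 ± 0.06 with ONC201 at 24 h in JeKo-1 and 0.49 ± 0.08 with rapamycin, while 0.28 ± 0.14 in parental Z138 and 0.23 ± 0.08 with tunicamycin at 24 h did not pass the test. In parental Z138 the plasma cell genes PRDM1 (1.55 ± 0.11) and IRF4 (1.12 ± 0.10) and the lymphoma gene SOX11 (1.03 ± 0.10) rose, and PRDM1 also rose with tunicamycin, by 0.72 ± 0.11 at 12 h and 0.51 ± 0.11 at 24 h. The part of these changes in the results was not tested.

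Of the 32 members with a probe, 27 were detected on every array of at least 1 group: 26 in JeKo-1, 24 in parental Z138 and 22 in resistant Z138. The 5 others, the chemokines CCL4 and CCL17, the cytokines IL6 and TNF and the nuclear receptor NR4A1, were detected on 0 of the 28 arrays. IL10, a cytokine that B cells can secrete, was the one of the 27 not detected in JeKo-1, and the adaptor TRAF1, the chemokine CCL22 and the hyaluronan receptor CD44 were the ones not detected in either form of Z138. REL and CCL3 met the criterion in parental but not in resistant Z138. All arrays detected 18 members, among them NFKB1, NFKB2, RELA, RELB, NFKBIA and TNFAIP3. The plot of values by array shows 9 members on all arrays.

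**Figure D1:**
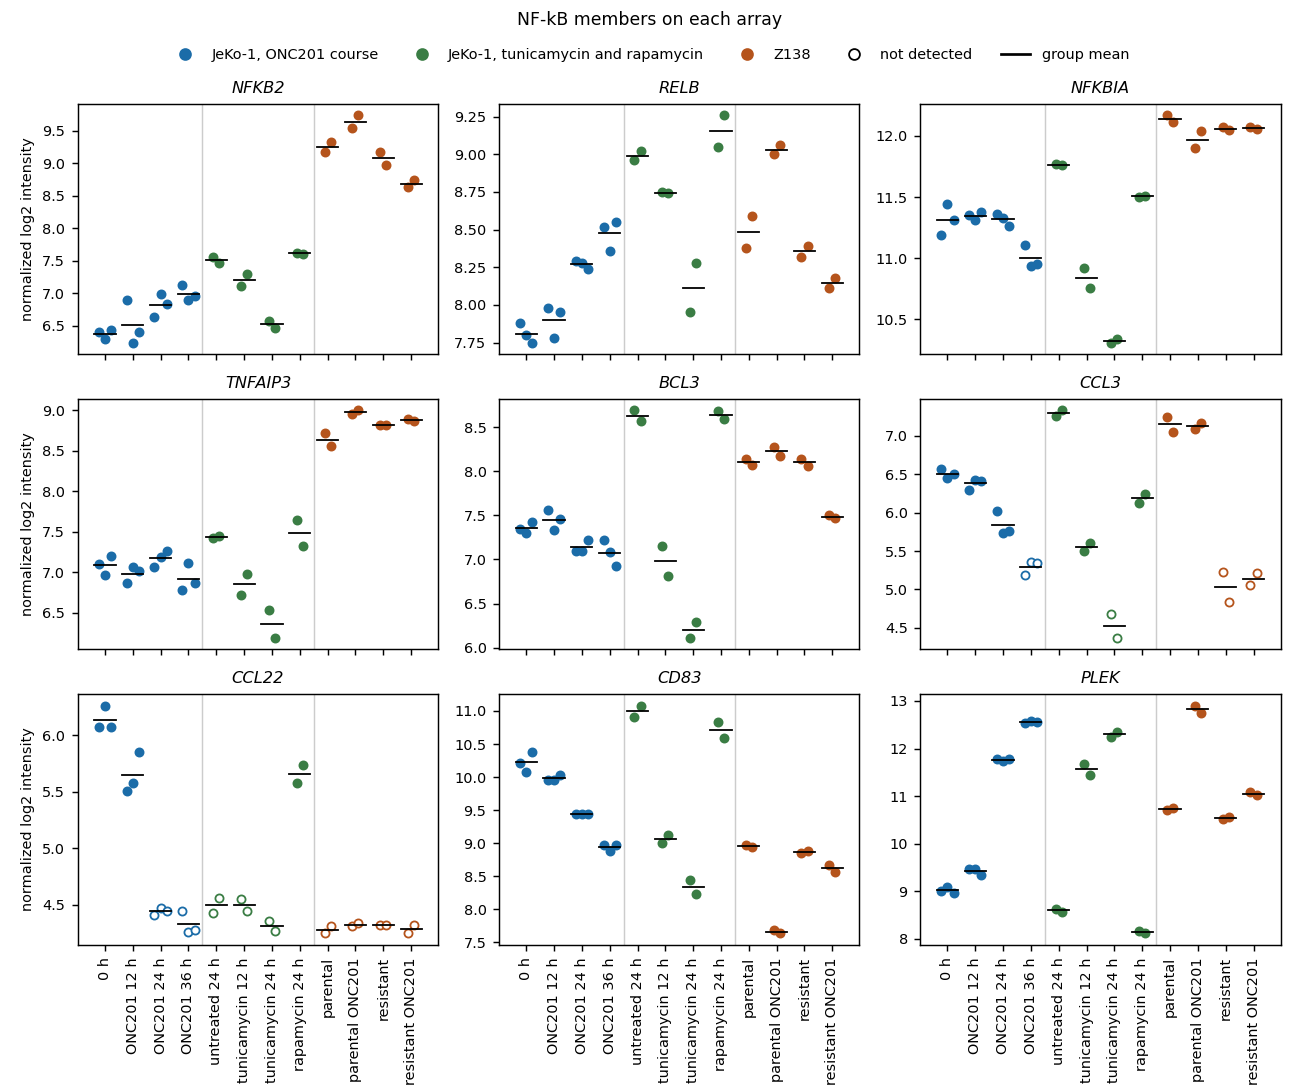
Normalized log2 intensity of 9 NF-kB members (vertical axis of each panel) on each of the 28 arrays, by group (horizontal axis); filled points were detected, open points were not, and bars are group means. NFKBIA, BCL3, CCL3 and CD83 lie lowest among the JeKo-1 groups of the third experiment in the wells with tunicamycin for 24 h, and PLEK lies highest there.

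Whether stress in the endoplasmic reticulum moves NF-kB genes in JeKo-1 was asked by setting tunicamycin against the DMSO wells at 24 h. After 24 h, 16 of the 26 members tested were lower and 2 were higher (limma, adjusted p under 0.05), where 15.3% of all 9517 genes tested were lower and 17.2% higher. The median log2 fold change was -0.70 over the members and 0.01 over all genes tested. The list was chosen with earlier results of these data known, so such shares and medians describe this list only. After 12 h, 13 of the 26 were lower and 2 higher, against 11.7% and 13.8% of all genes, with medians of -0.40 and 0.03; that comparison also differs in harvest time, since the DMSO wells were taken at 24 h. Changes are log2 fold changes with the standard error from limma, on a scale whose offset shrinks the change of dim probes, and values per well are normalized log2 intensities.

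Among the subunits, NFKB2, RELB and REL fell by 24 h, and NFKB1 and RELA did not pass the test. NFKB2, the precursor of the p52 subunit, read 7.55 and 7.46 in the DMSO wells, 7.11 and 7.29 after 12 h and 6.58 and 6.46 after 24 h. Both wells at 24 h lay below the other wells of this experiment, a change of -0.98 ± 0.10 (adjusted p = 0.000308). RELB, the partner of p52, read 8.96 and 9.02 in the DMSO wells, 8.75 and 8.74 at 12 h and 7.95 and 8.28 at 24 h (-0.87 ± 0.13, adjusted p = 0.00174). REL, the subunit c-Rel, was detected in both DMSO wells at 6.03 and 6.01, in neither well at 12 h and in 1 of 2 at 24 h (4.97 and 5.45), with a change of -0.81 ± 0.17 at 24 h (adjusted p = 0.00939). NFKB1, the precursor of p50, read 11.06 and 11.13 in the DMSO wells, 11.18 and 11.07 at 12 h and 11.07 and 10.83 at 24 h. Its groups overlapped, and the change of -0.14 ± 0.10 had an adjusted p of 0.337; that of RELA, -0.17 ± 0.10, had one of 0.219.

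Of the 6 inhibitors and feedback genes tested, 4 fell, and BCL3 and NFKBIZ among these encode nuclear rather than cytoplasmic IkB proteins. NFKBIA, which encodes IkB-alpha and whose promoter window holds a match, read 11.77 and 11.76 in the DMSO wells, 10.92 and 10.76 at 12 h and 10.31 and 10.34 at 24 h, so that the 3 groups did not overlap. The change was -0.93 ± 0.09 at 12 h (adjusted p = 0.000413) and -1.44 ± 0.09 at 24 h (adjusted p = 3.07e-05). TNFAIP3, the A20 protein that removes activating ubiquitin chains, read 7.42 and 7.45, then 6.72 and 6.98, then 6.53 and 6.19. Its change was -1.07 ± 0.16 at 24 h (adjusted p = 0.00184). BCL3, a nuclear IkB protein that binds p50 and p52, had the largest fall of the inhibitors: it read 8.69 and 8.57 in the DMSO wells, 7.15 and 6.81 at 12 h and 6.11 and 6.29 at 24 h, a 5.38-fold lower level by 24 h (-2.43 ± 0.13, adjusted p = 1.93e-05). NFKBIZ, another nuclear IkB protein, changed by -0.72 ± 0.13 (adjusted p = 0.00414). NFKBIB, which encodes IkB-beta, and TNIP1, the A20 partner ABIN-1, had changes of 0.07 and -0.26 at 24 h and did not pass the test.

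CCL3L3 had the largest measured fall of the list. It is a near-identical copy of the chemokine CCL3, which fell as well, and the probes may read each other's transcripts, so the split between the copies is uncertain. CCL3 read 7.26 and 7.33 in the DMSO wells, 5.5 and 5.6 at 12 h and 4.68 and 4.37 at 24 h. It was not detected in either well at 24 h, so the level there is a bound: at least 4.26-fold lower (adjusted p = 7.2e-06). Such bounds set the mean of the detected group against the dim group's mean of, per array, the lowest signal of any detected probe or the probe's own signal, whichever is higher. CCL3L3 read 8.62 and 8.43, then 6.89 and 6.57, then 5.46 and 5.58, an 8.03-fold fall by 24 h (-3.01 ± 0.13, adjusted p = 7.2e-06). The lymphotoxin LTA changed by -0.56 ± 0.11 (adjusted p = 0.0063) and CCL22 was detected in no well of these 3 groups.

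Among the surface, survival and other genes, CD83, a glycoprotein of activated B cells, read 10.91 and 11.08 in the DMSO wells, 9.01 and 9.13 at 12 h and 8.45 and 8.23 at 24 h. That is a 6.29-fold fall (-2.65 ± 0.13, adjusted p = 1.09e-05), and a second CD83 probe gave -2.72. IER3, an early-response gene tied to cell survival, changed by -1.74 ± 0.09, and TNFAIP8, an anti-apoptotic gene, by -1.23 ± 0.12. CD44 changed by -0.69 ± 0.16 and TRAF3, the adaptor that restrains the alternative pathway, by -0.47 ± 0.08. The adhesion molecule ICAM1 was detected in both DMSO wells and in no tunicamycin well (at least 1.21-fold lower at 24 h, adjusted p = 0.00502). It passed the detection filter of this experiment only through the DMSO wells, so this p-value is not independent of the filter.

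The members that rose under tunicamycin were PLEK and PIM1. PLEK, which encodes pleckstrin, a protein kinase C substrate of blood cells, read 8.63 and 8.57 in the DMSO wells, 11.67 and 11.45 at 12 h and 12.25 and 12.34 at 24 h. Its rise of 3.69 ± 0.10 (12.9-fold, adjusted p = 1.86e-06) was the largest change of any member in this comparison, and its promoter window holds no match to the consensus. PIM1, a kinase that promotes growth and survival, read 9.66 and 9.78, then 10.34 and 10.3, then 10.44 and 10.57 (0.79 ± 0.10, adjusted p = 0.000955).

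Of the 18 calls at 24 h, 17 were kept whichever single array was left out, and that of CD44 was lost without DMSO well 2 (-0.50, adjusted p = 0.0775) or tunicamycin well 1 (-0.52, adjusted p = 0.0872). Of the 15 calls at 12 h, 11 were kept. REL was lost without DMSO well 1 or 2 or tunicamycin well 2 (-0.81 to -0.72, adjusted p = 0.0553 to 0.0718), NFKBIZ without DMSO well 2 or tunicamycin well 1 (-0.37 to -0.34, adjusted p = 0.129 to 0.141), TNFAIP3 without DMSO well 1 or 2 or tunicamycin well 1 (-0.60 to -0.46, adjusted p = 0.103 to 0.156), and CD44 without DMSO well 2 or tunicamycin well 1 or 2 (-0.74 to -0.46, adjusted p = 0.0542 to 0.115).

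Set directly against each other, 8 of 26 members were lower and 1 was higher at 24 h than at 12 h of tunicamycin, where 1.78% of all genes were lower and 2.27% higher. The medians were -0.21 and -0.01. The members lower were NFKB2 (-0.68 ± 0.10), RELB (-0.63 ± 0.13), NFKBIA (-0.51 ± 0.09), BCL3 (-0.78 ± 0.13), IER3 (-0.48 ± 0.09), CCL3L3 (-1.20 ± 0.13), CD83 (-0.73 ± 0.13) and CCL3, which was not detected at 24 h and so was at least 1.27-fold lower, and PLEK was higher (0.73 ± 0.10). Their adjusted p-values lay between 0.0048 and 0.0383. CCL3L3 alone kept its call whichever of the 4 arrays was left out. Without 12 h well 1 there were 4 calls, and without 12 h well 2, 24 h well 1 or 24 h well 2 there were 2, so the count rests on having both wells of each time.

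**Figure D2:**
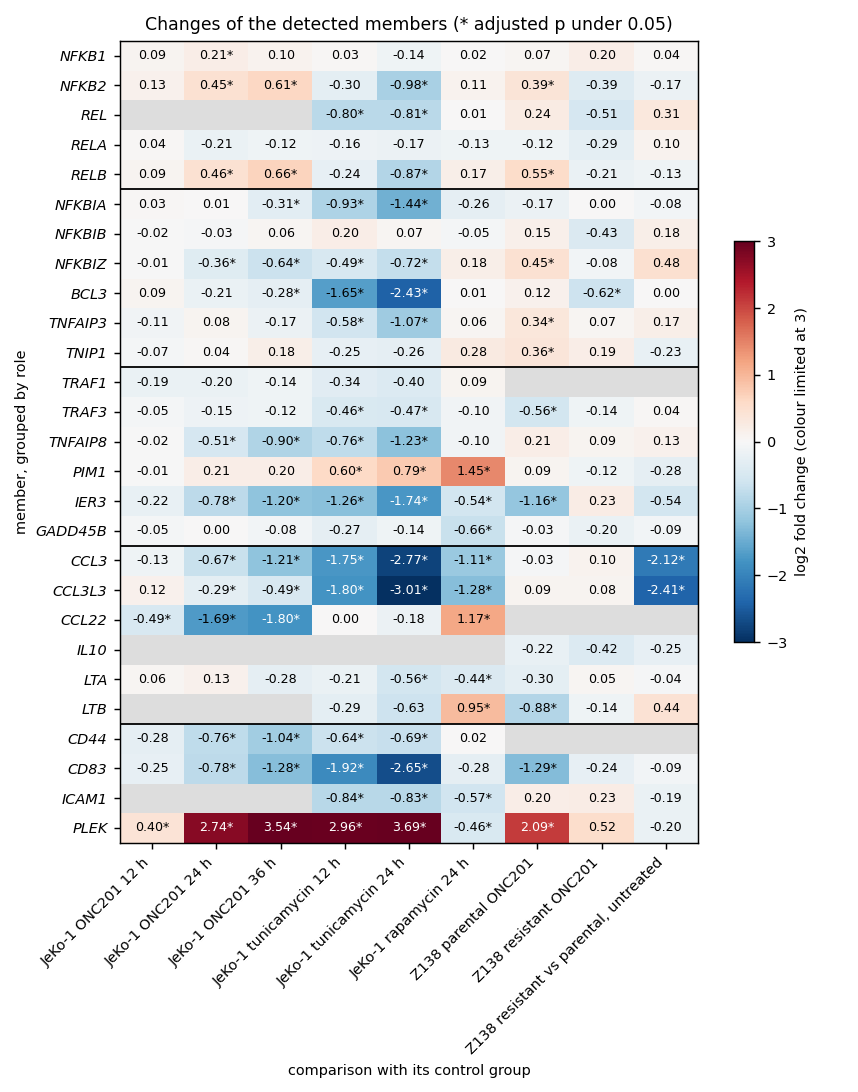
Log2 fold change of the 27 detected members (rows, grouped by role with lines between subunits, inhibitors, adaptors and survival genes, cytokines, and surface and other genes) in 9 comparisons (columns); an asterisk marks an adjusted p under 0.05 and grey a member not tested. The tunicamycin columns are mostly negative with PLEK and PIM1 as the called exceptions, and the resistant Z138 column holds 1 call, BCL3.

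The JeKo-1 course with ONC201 had its control at 0 h only, which leaves time in culture within every change. After 12 h, 1 of the 23 members tested was higher and 1 lower, where 2.16% of all 8823 genes tested were higher and 1.65% lower. After 24 h, 4 were higher and 8 lower, against 19.9% and 18.5% of all genes. After 36 h, 3 were higher and 10 lower, against 25.1% and 25.9%. The median change of the members was -0.02, -0.15 and -0.17 at the 3 times, and that of all genes was 0 at each. The members higher were no larger a share than among all genes at 24 h (17.4%) and 36 h (13%), and the members lower were a larger one (34.8% and 43.5%).

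The subunits NFKB2 and RELB rose. NFKB2 read 6.41, 6.29 and 6.43 at 0 h, 6.89, 6.24 and 6.41 at 12 h, 6.63, 6.99 and 6.84 at 24 h and 7.12, 6.89 and 6.95 at 36 h. The wells at 24 and 36 h all lay above those at 0 h, a change of 0.45 ± 0.15 at 24 h (adjusted p = 0.0306) and 0.61 ± 0.15 at 36 h (adjusted p = 0.0041). RELB read 7.88, 7.8 and 7.75 at 0 h, 7.98, 7.78 and 7.95 at 12 h, 8.29, 8.28 and 8.24 at 24 h and 8.52, 8.36 and 8.55 at 36 h. Its change was 0.46 ± 0.08 at 24 h (adjusted p = 0.000668) and 0.66 ± 0.08 at 36 h (adjusted p = 2.04e-05). The DMSO wells of the other JeKo-1 chip, harvested at 24 h, read 7.55 and 7.46 for NFKB2 and 8.96 and 9.02 for RELB, above every well of the ONC201 course. How far these rises follow time in culture and how far ONC201 cannot be told apart. NFKB1 read 10.94, 11.14 and 11.11 at 0 h, 11.19, 11.13 and 11.16 at 12 h, 11.31, 11.28 and 11.24 at 24 h and 11.15, 11.15 and 11.17 at 36 h. It was higher at 24 h by 0.21 ± 0.07 (adjusted p = 0.0238), and the change at 36 h of 0.10 ± 0.07 had an adjusted p of 0.237. RELA had changes of -0.21 and -0.12 and did not pass the test, and REL was not tested in this course because few wells detected it.

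Of the 6 inhibitors tested, 1 was lower at 24 h and 3 were lower at 36 h. NFKBIA read 11.19, 11.44 and 11.31 at 0 h, 11.35, 11.31 and 11.38 at 12 h, 11.36, 11.33 and 11.26 at 24 h and 11.11, 10.94 and 10.95 at 36 h. Only the 36 h wells lay below all those at 0 h (-0.31 ± 0.08, adjusted p = 0.00441), and the change at 24 h was 0.01 ± 0.08 (adjusted p = 0.958). TNFAIP3 read 7.1, 6.97 and 7.2 at 0 h, 6.87, 7.06 and 7.02 at 12 h, 7.07, 7.19 and 7.26 at 24 h and 6.78, 7.12 and 6.87 at 36 h. Its groups overlapped at all 3 times, with changes of -0.11, 0.08 and -0.17 that did not pass the test. NFKBIZ was lower by -0.36 ± 0.07 at 24 h (adjusted p = 0.00114) and -0.64 ± 0.07 at 36 h (adjusted p = 7.58e-06), while its DMSO wells at 24 h read lower still, 8.07 and 8.37 against 8.63 to 8.75 with ONC201. BCL3 changed by -0.28 ± 0.09 at 36 h (adjusted p = 0.0167). Its DMSO wells at 24 h, on the other chip, read 8.57 and 8.69, against 7.3 to 7.42 at 0 h and 7.1 to 7.22 with ONC201 at 24 h. Those of NFKBIA (11.76 and 11.77) and TNFAIP3 (7.42 and 7.45) also read above every well of the ONC201 course. Chip and time cannot be told apart there. For NFKBIB the probes disagreed: the brighter probe gave -0.03 at 24 h and the dimmer one -0.72.

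CCL22, a chemokine that draws T cells through the receptor CCR4, was lower at all 3 times. It read 6.07, 6.26 and 6.07 at 0 h and 5.51, 5.58 and 5.85 at 12 h (-0.49 ± 0.09, adjusted p = 0.0166). No well detected it at 24 h (4.41, 4.47 and 4.45) or at 36 h (4.45, 4.26 and 4.28), at least 1.54-fold and 1.52-fold lower (adjusted p = 1.39e-07 and 3.49e-08). CCL22 passed the detection filter of this course only through the 0 h and 12 h wells, so these p-values are not independent of the filter. The DMSO wells at 24 h on the other chip did not detect it either (4.43 and 4.56), so ONC201 and time in culture cannot be told apart for this gene. CCL3 read 6.57, 6.45 and 6.5 at 0 h, 6.3, 6.43 and 6.41 at 12 h, and 6.02, 5.73 and 5.76 at 24 h, and it was not detected at 36 h (5.19, 5.36 and 5.34). Its change was -0.67 ± 0.09 at 24 h (adjusted p = 0.000113), and at 36 h it was at least 1.97-fold lower (adjusted p = 4.4e-07). Here the DMSO wells at 24 h read 7.26 and 7.33, above the wells at 0 h. CCL3L3 changed by -0.29 ± 0.10 and -0.49 ± 0.10 at 24 and 36 h.

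CD83, IER3 and CD44 fell with time under ONC201. CD83 read 10.21, 10.08 and 10.38 at 0 h, 9.95, 9.96 and 10.03 at 12 h, 9.45, 9.45 and 9.44 at 24 h and 8.98, 8.88 and 8.98 at 36 h, groups that did not overlap, with changes of -0.78 ± 0.08 and -1.28 ± 0.08 at 24 and 36 h (adjusted p = 1.44e-05 and 1.01e-07). IER3 read 7.89, 7.93 and 7.79 at 0 h, 7.73, 7.66 and 7.58 at 12 h, 7.19, 7.09 and 6.99 at 24 h and 6.6, 6.58 and 6.81 at 36 h (-0.78 ± 0.08 and -1.20 ± 0.08, adjusted p = 2.56e-05 and 3.08e-07). For both genes the DMSO wells at 24 h read above every well at 0 h. CD44 read 7.16, 7.25 and 7.08 at 0 h, 6.94, 6.87 and 6.84 at 12 h, 6.35, 6.41 and 6.45 at 24 h and 6.22, 6.11 and 6.04 at 36 h (-0.76 ± 0.07 and -1.04 ± 0.07, adjusted p = 1e-05 and 3.08e-07), and the DMSO wells, at 6.41 and 6.77, overlapped with the ONC201 wells at 24 h. TNFAIP8 changed by -0.51 ± 0.18 and -0.90 ± 0.18 (adjusted p = 0.0372 and 0.00107).

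PLEK rose here too. It read 9.01, 9.09 and 8.97 at 0 h, 9.47, 9.47 and 9.35 at 12 h, 11.78, 11.73 and 11.78 at 24 h and 12.54, 12.57 and 12.56 at 36 h, and no 2 of these groups overlapped. The change was 0.40 ± 0.06 at 12 h (adjusted p = 0.00463), 2.74 ± 0.06 at 24 h (6.68-fold, adjusted p = 6.64e-11) and 3.54 ± 0.06 at 36 h (11.6-fold, adjusted p = 3.27e-12). The DMSO wells at 24 h, at 8.63 and 8.57, lay below those at 0 h. Of the members higher at 24 h, NFKB2 (1.12) and RELB (1.18) also had a higher mean in the DMSO wells of the other chip at 24 h than at 0 h. NFKB1 differed there by 0.04 with overlapping wells. Of the members lower at 24 h, NFKBIZ (-0.84), CD44 (-0.57) and CCL22, which those wells did not detect, also had a lower mean there, and the others did not. Chip and time cannot be told apart in these differences, and the share of all genes that do the same was not computed.

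Leaving out 1 well changed some of these calls. At 24 h, 8 of 12 were kept throughout. NFKB2 was lost without 0 h well 1, 2 or 3 or 24 h well 2 or 3 (0.36 to 0.47, adjusted p = 0.0517 to 0.114), NFKB1 without 0 h well 1 or 24 h well 1 or 2 (0.15 to 0.21, adjusted p = 0.0597 to 0.0946), and CCL3L3 without 0 h well 1 or 2 or any 24 h well (-0.31 to -0.23, adjusted p = 0.0725 to 0.136). TNFAIP8 was lost without 0 h well 2 or 3 or 24 h well 1 or 3 (adjusted p = 0.0568 to 0.121), and 0 h well 3, which read 8.3 against 7.45 and 7.75, decides its size: without it the change was -0.28. At 36 h, 12 of 13 calls were kept, and BCL3 was lost without 0 h well 3 or 36 h well 3 (-0.25 and -0.21, adjusted p = 0.0545 and 0.0771). At 12 h, PLEK was kept, CCL22 was lost without 12 h well 1 or 2 (-0.42 and -0.46, adjusted p = 0.0698 and 0.0608), and CD83 passed without 0 h well 2 (-0.32, adjusted p = 0.0367).

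To ask whether ONC201 and tunicamycin act differently on these genes in JeKo-1, the difference of their 24 h effects was tested over the 20 JeKo-1 arrays. It was positive for 13 of 23 members and negative for 3, where 13.3% of all 8600 genes tested had a positive and 13.3% a negative difference. The medians were 0.36 over the members and -0.02 over all genes. The effects come from different chips, and each has its own control, taken at 0 h for ONC201 and at 24 h for tunicamycin, which cannot be told apart from the compounds. Among the inhibitors, the difference was positive for BCL3 (2.21 ± 0.15, adjusted p = 4.09e-08), NFKBIA (1.45 ± 0.11, adjusted p = 1.17e-07), TNFAIP3 (1.16 ± 0.18, adjusted p = 0.00018) and NFKBIZ (0.36 ± 0.13, adjusted p = 0.0456). Of the subunits, NFKB2 (1.43 ± 0.21, adjusted p = 8.26e-05), RELB (1.33 ± 0.14, adjusted p = 2.73e-06) and NFKB1 (0.36 ± 0.11, adjusted p = 0.0251) differed, and RELA (-0.04 ± 0.14) did not pass. NFKB2 and RELB were higher with ONC201 and lower with tunicamycin, each against its own control. Against the DMSO wells at 24 h, on the other chip, their means with ONC201 at 24 h were lower as well (6.82 against 7.5 and 8.27 against 8.99). The DMSO mean at 24 h minus the 0 h mean lies within every difference given here. It was 1.12 for NFKB2, 1.18 for RELB, 1.27 for BCL3, 0.46 for NFKBIA and 0.34 for TNFAIP3. For CD83 and CCL3L3 it was 0.76, for NFKB1 0.04, for NFKBIZ -0.84, for PIM1 -0.78 and for PLEK -0.42. Of the cytokine and surface genes, CCL3L3 (2.71 ± 0.17) and CD83 (1.87 ± 0.14) had positive differences, and so did CCL3, for which no size is given because no well with tunicamycin at 24 h detected it. The negative differences were those of PLEK (-0.95 ± 0.10), PIM1 (-0.58 ± 0.13) and CCL22. CCL22 was detected in no well with DMSO, tunicamycin or ONC201 at 24 h, so its tunicamycin effect was not measurable and no size is given. It passed the detection filters only through the 0 h and 12 h wells of the ONC201 course and the rapamycin wells. Its call is thus not independent of the filter. Without some single arrays the calls of NFKB1 (0 h well 1, ONC201 24 h well 1, DMSO well 2, tunicamycin 24 h well 2; 0.23 to 0.34, adjusted p = 0.0511 to 0.159) and LTA (DMSO well 1, tunicamycin 24 h well 2; 0.56 to 0.63, adjusted p = 0.0712 to 0.0977) were lost. NFKBIZ was lost without 7 of the 10 arrays (0 h well 1 or 3, ONC201 24 h well 2 or 3, DMSO well 2 and either tunicamycin 24 h well; 0.21 to 0.38) and TNFAIP8 also without 7 (0 h well 1 or 2, ONC201 24 h well 1 or 2, DMSO well 1 and either tunicamycin 24 h well; 0.53 to 0.80), and the other 12 calls were kept.

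**Figure D3:**
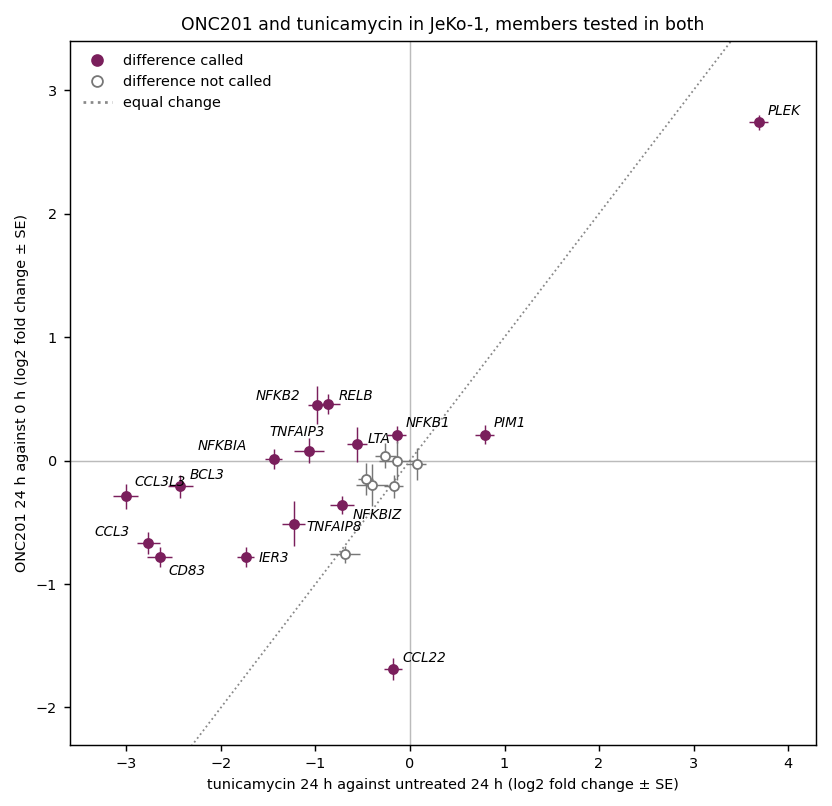
Log2 fold change ± SE of the members tested in both, with ONC201 at 24 h against 0 h (vertical) and with tunicamycin at 24 h against DMSO at 24 h (horizontal), in JeKo-1; filled points have a called difference and the dotted line marks equal change. NFKB2 and RELB lie above 0 on the ONC201 axis and below 0 on the tunicamycin axis, BCL3 and CCL3L3 lie far to the left of the line, and PLEK lies high on both axes; CCL3 and CCL22 are drawn at fitted values although wells behind them were not detected.

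Rapamycin was set against the same DMSO wells as tunicamycin, and the comparisons share them. After 24 h, 3 of 26 members were higher and 7 lower, where 12% of all genes tested were higher and 12.6% lower. The medians were -0.02 over the members and 0.01 over all genes. None of the 5 subunits and 6 inhibitors tested passed limma's threshold (adjusted p of NFKBIA 0.0614). NFKB1 read 11.13 and 11.1, NFKB2 7.62 and 7.61, RELB 9.05 and 9.26, NFKBIA 11.5 and 11.51 and TNFAIP3 7.65 and 7.33. NFKB1 and TNFAIP3 overlapped with the DMSO wells, while both NFKBIA wells lay below and both NFKB2 and RELB wells above them, with changes of -0.26 ± 0.09, 0.11 ± 0.10 and 0.17 ± 0.13.

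Of the 10 members called with rapamycin, the largest rise measured on both sides was that of PIM1. It read 9.66 and 9.78 in the DMSO wells and 11.08 and 11.26 with rapamycin (1.45 ± 0.10, adjusted p = 0.000185). CCL22 and the lymphotoxin LTB were detected in both rapamycin wells and in no DMSO or tunicamycin well. Both passed the detection filter only through the wells where they were high, so their p-values are not independent of the filter and add nothing to the detection itself. CCL22 read 5.58 and 5.74 against 4.43 and 4.56 (at least 1.33-fold higher, adjusted p = 0.000414), and LTB 5.73 and 6.24 against 5.23 and 4.84 (at least 1.67-fold higher, adjusted p = 0.0156). A dimmer LTB probe, detected on 0 of 20 JeKo-1 arrays, gave 0.28 where the probe used gave 0.95. CCL3 read 6.13 and 6.24 against 7.26 and 7.33 (-1.11 ± 0.12, adjusted p = 0.000975) and CCL3L3 7.21 and 7.28 against 8.62 and 8.43 (-1.28 ± 0.13, adjusted p = 8e-04). GADD45B, a stress gene that restrains JNK signalling, read 5.27 and 5.67 against 5.95 and 6.31 (-0.66 ± 0.19, adjusted p = 0.0374), and ICAM1 was no longer detected at 4.77 and 5.05 against 5.34 and 5.61 (at least 1.12-fold lower, adjusted p = 0.0306). ICAM1 passed the detection filter through the DMSO wells alone, so its p-value is not independent of the filter. IER3 (-0.54 ± 0.09), PLEK (-0.46 ± 0.10) and LTA (-0.44 ± 0.11) were lower as well.

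Of the 10 calls with rapamycin, 5 were kept whichever single array was left out: PIM1, IER3, CCL3, CCL3L3 and CCL22. PLEK was lost without any 1 of the 4 wells (-0.49 to -0.43, adjusted p = 0.0518 to 0.0796), GADD45B without DMSO well 1 or 2 or rapamycin well 1 (-0.84 to -0.46, adjusted p = 0.0506 to 0.173), and LTA without DMSO well 1 or either rapamycin well (-0.47 to -0.31, adjusted p = 0.0645 to 0.116). LTB was lost without DMSO well 2 or rapamycin well 2 (adjusted p = 0.0702 to 0.082), and ICAM1 without DMSO well 2 or rapamycin well 1 (adjusted p = 0.144 and 0.146). The count fell to 6 without DMSO well 2 and also without rapamycin well 1.

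Set against rapamycin at the same time, tunicamycin gave lower values of 18 of 26 members and a higher value of 1, where 16.5% of all genes were lower and 18.2% higher. The medians were -0.86 and 0.01. Of the members followed throughout, NFKB1 (-0.16 ± 0.10) did not pass the test, and lower with tunicamycin were NFKB2 (-1.09 ± 0.10), RELB (-1.04 ± 0.13), NFKBIA (-1.17 ± 0.09) and TNFAIP3 (-1.13 ± 0.16). The largest differences measured on both sides were a higher PLEK (4.15 ± 0.10) and a lower BCL3 (-2.43 ± 0.13), CD83 (-2.38 ± 0.13) and CCL3L3 (-1.72 ± 0.13). CCL3 (at least 1.97-fold), LTB (at least 1.72-fold) and CCL22 (at least 1.37-fold) were lower too, and none was detected with tunicamycin at 24 h. LTB and CCL22 passed the detection filter only through the rapamycin wells, so these 2 calls rest on that detection. PIM1, higher with both compounds against DMSO, was lower with tunicamycin than with rapamycin (-0.66 ± 0.10, adjusted p = 0.0019). Without 1 array the calls of TNIP1 (tunicamycin well 2, -0.45, adjusted p = 0.0506), TRAF3 (tunicamycin well 1 or rapamycin well 2, -0.33 to -0.32, adjusted p = 0.0642 to 0.0736) and CD44 (tunicamycin well 1 or rapamycin well 1, -0.63 to -0.54, adjusted p = 0.0612 to 0.0735) were lost.

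The 24 h effect of ONC201 differed from that of rapamycin for 9 of 23 members, 4 positive and 5 negative, where 16.6% of all genes were positive and 15.7% negative, so the shares (17.4% and 21.7%) lay near those of all genes. The medians were -0.05 and -0.02. The positive differences were those of PLEK (3.20 ± 0.10), CCL3L3 (0.99 ± 0.17), LTA (0.57 ± 0.20) and CCL3 (0.44 ± 0.14), and the negative ones those of PIM1 (-1.24 ± 0.13), CD44 (-0.78 ± 0.16), NFKBIZ (-0.54 ± 0.13), CD83 (-0.50 ± 0.14) and CCL22. No size is given for CCL22, which was detected at 0 h and with rapamycin but in no well with ONC201 at 24 h or DMSO. In the third experiment CCL22 passed the detection filter only through the rapamycin wells, so its call is not independent of the filter. Control time and chip differ between these effects as well. The call of CCL3 was lost without ONC201 24 h well 1, DMSO well 2 or rapamycin well 1 (0.36 to 0.41, adjusted p = 0.0569 to 0.0923), that of CD83 without DMSO well 1 or rapamycin well 1 (-0.42 and -0.38), and that of LTA without 7 of 10 arrays (0 h well 1 or 3, ONC201 24 h well 1 or 2, DMSO well 1 and either rapamycin well; 0.41 to 0.60).

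Parental and resistant Z138 were each compared with and without 5 µM ONC201 for 24 h, with the DMSO wells taken at the same time. In parental cells, 6 of 24 members were higher and 4 lower, where 22.8% of all 9453 genes tested were higher and 21.9% lower, so the shares (25% and 16.7%) lay near those of all genes. The medians were 0.09 over the members and 0 over all genes. In resistant cells, 0 members were higher and 1 was lower, where 0.106% of all genes were higher and 0.381% lower, with medians of -0.10 and 0. For 8 members the unadjusted limma p was under 0.05. The share of all genes under that looser threshold was not computed, so this count has nothing to be set against.

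In parental cells the subunits of the alternative pathway rose. NFKB2 read 9.17 and 9.32 in the DMSO wells and 9.54 and 9.74 with ONC201 (0.39 ± 0.12, adjusted p = 0.0261), and RELB 8.38 and 8.59 against 9 and 9.06 (0.55 ± 0.10, adjusted p = 0.00279), without overlap. NFKB1 read 11.47 and 11.41 against 11.57 and 11.43, groups that overlapped (0.07 ± 0.09, adjusted p = 0.593). Of the inhibitors, NFKBIZ read 6.92 and 7.26 against 7.64 and 7.43 (0.45 ± 0.14, adjusted p = 0.0327), TNFAIP3 8.72 and 8.56 against 8.96 and 9 (0.34 ± 0.09, adjusted p = 0.0161), and TNIP1 was higher by 0.36 ± 0.09 (adjusted p = 0.0142). NFKBIA read 12.17 and 12.11 against 11.9 and 12.04, a change of -0.17 ± 0.09 that did not pass the test (adjusted p = 0.156).

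PLEK read 10.71 and 10.76 in the parental DMSO wells and 12.9 and 12.75 with ONC201, a 4.24-fold rise (2.09 ± 0.09, adjusted p = 3.5e-06). The members that fell were CD83, IER3, LTB and TRAF3. CD83 read 8.97 and 8.94 against 7.69 and 7.64 (-1.29 ± 0.09, adjusted p = 2.22e-05), and its second probe gave -1.26. IER3 read 7.11 and 6.8 against 5.81 and 5.78 (-1.16 ± 0.13, adjusted p = 0.000215). LTB read 6.28 and 6.2 against 5.51 and 5.22 (-0.88 ± 0.11, adjusted p = 0.000474), and a dimmer LTB probe, detected on 1 of 8 Z138 arrays, gave -0.21. TRAF3 read 7.11 and 7 against 6.54 and 6.45 (-0.56 ± 0.12, adjusted p = 0.00551). CCL3 and CCL3L3 had changes of -0.03 and 0.09 and did not pass the test. Single wells decided 4 of the 10 calls: NFKB2 was lost without DMSO well 1 or ONC201 well 2 (0.29 to 0.31, adjusted p = 0.128 to 0.149), NFKBIZ without DMSO well 1 or ONC201 well 1 (0.28 to 0.34, adjusted p = 0.175 to 0.188), TNFAIP3 without DMSO well 2 or either ONC201 well (0.26 to 0.36, adjusted p = 0.0548 to 0.0936) and TNIP1 without DMSO well 2 or ONC201 well 2 (0.29 to 0.30, adjusted p = 0.0791 to 0.0863).

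In resistant cells the called member was BCL3, which read 8.14 and 8.06 in the DMSO wells and 7.5 and 7.47 with ONC201 (-0.62 ± 0.09, adjusted p = 0.0394). The call was lost without any 1 of the 4 resistant wells (-0.66 to -0.58, adjusted p = 0.153 to 0.227), and also with the Z138 arrays normalized by themselves, where no gene was called. NFKB1 read 11.47 and 11.48 against 11.72 and 11.64, NFKB2 9.18 and 8.97 against 8.63 and 8.74, RELB 8.32 and 8.39 against 8.11 and 8.18, NFKBIA 12.07 and 12.05 against 12.07 and 12.06, and TNFAIP3 8.82 and 8.82 against 8.9 and 8.87. Of these 5, NFKBIA overlapped between the groups, NFKB2 and RELB read lower in both wells with ONC201 and NFKB1 and TNFAIP3 higher, and none passed the test (adjusted p = 0.135 to 0.981). PLEK read 10.51 and 10.56 against 11.09 and 11.02 (0.52 ± 0.09, adjusted p = 0.0548).

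The effects of ONC201 in resistant and parental cells differed for 9 of 24 members, 3 with a positive difference (resistant minus parental) and 6 with a negative one, where 14.2% of all genes were positive and 16.3% negative. The positive members were thus no larger a share than among all genes (12.5%), and the negative ones a larger one (25%). The medians were -0.16 and -0.01. The positive differences were those of IER3 (1.40 ± 0.18, adjusted p = 0.00128), CD83 (1.05 ± 0.12, adjusted p = 0.000828) and LTB (0.74 ± 0.16, adjusted p = 0.00995). All 3 are among the 4 genes that fell in parental cells. The parental fall is itself a part of the difference, so this overlap is no separate result. The difference for TRAF3 (0.42 ± 0.17, adjusted p = 0.0895) did not pass, and it passed without the second resistant ONC201 well (0.58, adjusted p = 0.0318). In resistant wells IER3 read 6.54 and 6.3 against 6.68 and 6.63, CD83 8.85 and 8.88 against 8.67 and 8.57, and LTB 6.68 and 6.68 against 6.59 and 6.5. The second CD83 probe changed by 0.08 in resistant cells, where the probe used changed by -0.24. The dimmer LTB probe, detected on 1 of 8 Z138 arrays, changed by -0.21 in parental and -0.42 in resistant cells, the other way from the difference given. The negative differences were those of PLEK (-1.57 ± 0.13, adjusted p = 0.000244), NFKB2 (-0.78 ± 0.17, adjusted p = 0.00971), RELB (-0.76 ± 0.14, adjusted p = 0.0058), BCL3 (-0.74 ± 0.13, adjusted p = 0.00379), NFKBIB (-0.58 ± 0.15, adjusted p = 0.0212) and REL (adjusted p = 0.0442). No size is given for REL, which was detected in neither parental DMSO well, both parental ONC201 wells, 1 of 2 resistant DMSO wells and neither resistant ONC201 well. REL passed the detection filter only with the parental ONC201 wells, so its p-value is not independent of the filter. Its call was lost without any 1 array except the second resistant DMSO well, and its other probe, detected on 0 of 8 Z138 arrays, changed by 0.06 in parental and -0.18 in resistant cells. The call of NFKBIB was lost without the first well of any of the 4 groups (-0.52 to -0.49, adjusted p = 0.0611 to 0.0717).

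Without treatment, 2 of 24 members differed between resistant and parental Z138, both lower in resistant cells, where 2.39% of all genes were lower and 1.52% higher. They were the chemokine pair. CCL3L3 read 7.98 and 7.96 in parental and 5.48 and 5.64 in resistant wells, 5.32-fold lower (-2.41 ± 0.12, adjusted p = 2.5e-05). CCL3 read 7.25 and 7.05 in parental wells and was not detected in resistant ones (5.23 and 4.84), at least 3.67-fold lower (adjusted p = 0.000127). It passed the detection filter only through the parental wells, so this p-value is not independent of the filter. The values with ONC201 were close to those without it in either form: 7.09 and 7.16 for CCL3 in parental wells, and 5.06 and 5.22, again not detected, in resistant ones. Both calls were kept whichever single array was left out, and since the probes may read the same transcripts they are not independent. NFKB1 (0.04 ± 0.09), NFKB2 (-0.17 ± 0.12), RELB (-0.13 ± 0.10), NFKBIA (-0.08 ± 0.09) and TNFAIP3 (0.17 ± 0.09) did not pass the test, with adjusted p between 0.358 and 0.871.

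**Figure D4:**
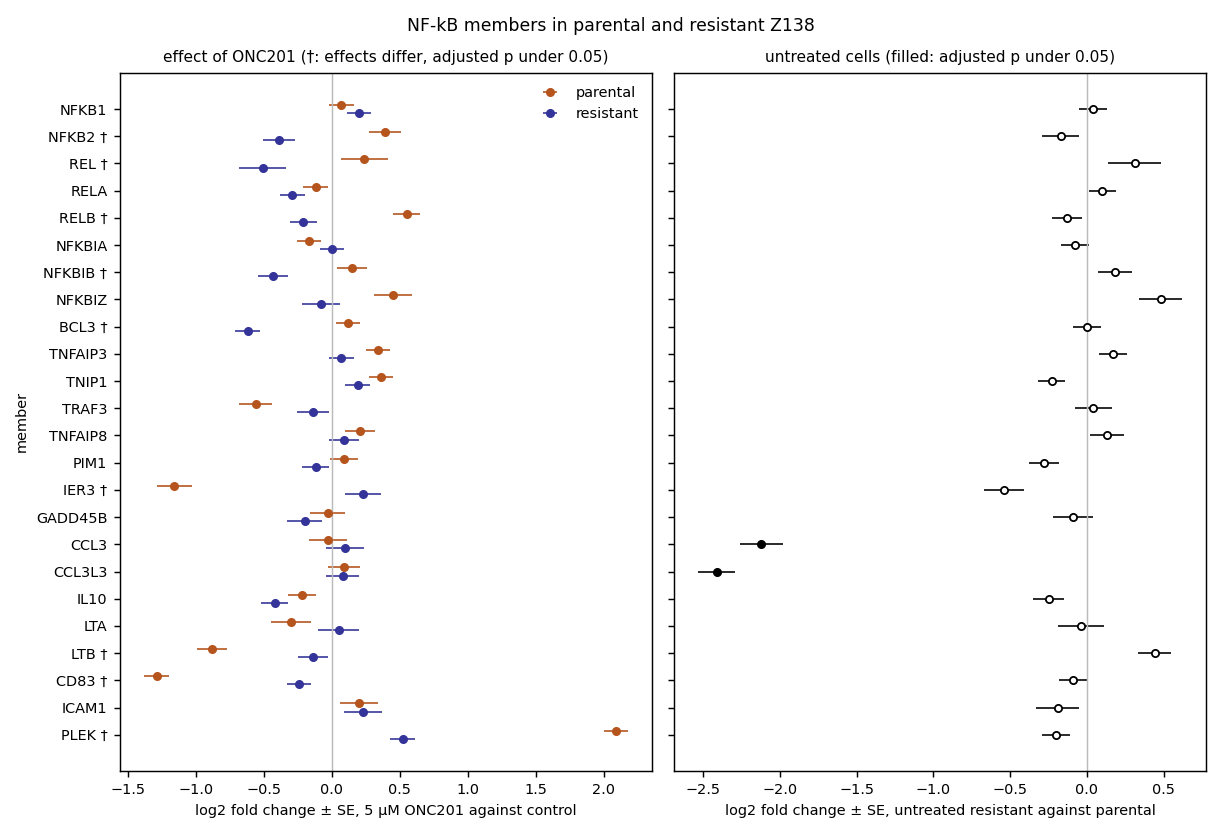
Left, log2 fold change ± SE with 5 µM ONC201 against DMSO for the 24 members tested in Z138 (rows), in parental and resistant cells; a dagger marks members whose effects differ (adjusted p under 0.05). Right, the same members in untreated resistant against untreated parental cells, filled where called: CCL3L3 lies at -2.41, CCL3 is drawn at its fitted value although no resistant DMSO well detected it, and no other member is called.

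Between the lines, the 24 h effect of ONC201 in JeKo-1 minus that in parental Z138 was tested over all 28 arrays for 20 members, of which 3 had a positive and 3 a negative difference, where 13.7% of all 8164 genes tested were positive and 13.6% negative. The medians were -0.03 and 0, and the shares (15% each way) lay near those of all genes. PLEK (0.66 ± 0.10, adjusted p = 4.23e-05), CD83 (0.51 ± 0.13, adjusted p = 0.00386) and IER3 (0.38 ± 0.14, adjusted p = 0.0419) were positive: PLEK rose more in JeKo-1, and CD83 and IER3 fell less. NFKBIZ (-0.81 ± 0.15, adjusted p = 0.000313) was lower in JeKo-1 and higher in Z138, TNFAIP8 (-0.72 ± 0.23, adjusted p = 0.0246) was lower in JeKo-1 with a change of 0.21 in Z138 that did not pass, and CCL3 (-0.64 ± 0.16, adjusted p = 0.00413) was lower in JeKo-1 with a change of -0.03 in Z138. For NFKB2 and RELB the differences were 0.06 ± 0.20 and -0.09 ± 0.13, and they did not pass the test. The dose in JeKo-1 is not given and its control was taken at 0 h, so line, dose and control time cannot be told apart. The call of IER3 was lost without 7 of 10 arrays (JeKo-1 0 h well 1 or 3, JeKo-1 24 h well 1 or 2, parental DMSO well 1 and either parental ONC201 well; 0.23 to 0.40) and that of TNFAIP8 without 4 (JeKo-1 24 h well 3, either parental DMSO well and parental ONC201 well 2; -0.72 to -0.59, adjusted p = 0.0577 to 0.114).

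A list of 41 other genes of the pathway, among them receptors, kinases, ubiquitin enzymes and further regulators, was counted beside the members. With tunicamycin at 24 h, 5 of 29 tested were higher and 7 lower, where 17.2% of all genes were higher and 15.3% lower, and the largest changes were falls of ZC3H12A (-1.32 ± 0.17), a ribonuclease that degrades inflammatory mRNAs, NFKBID (-1.26 ± 0.17), a nuclear IkB protein, and the receptor CD40 (-1.23 ± 0.10). With ONC201 at 24 h in JeKo-1, 4 of 27 were higher and 6 lower (19.9% and 18.5% of all genes), led by TNFRSF13B (-0.93 ± 0.08), the receptor TACI, then CD40 (-0.67 ± 0.15) and TNFRSF17 (0.66 ± 0.11), the receptor BCMA. In parental Z138, 8 of 28 were higher and 5 lower (22.8% and 21.9% of all genes), led by RBCK1 (1.84 ± 0.10), a subunit of the linear ubiquitin ligase, TNFRSF1A (1.72 ± 0.11), a TNF receptor, and CD40 (-1.10 ± 0.13). In resistant Z138, 0 of 28 passed limma's threshold in either direction (0.106% and 0.381% of all genes). There, 6 had an unadjusted p under 0.05, a threshold at which the share of all genes was not computed. The difference between resistant and parental effects was positive for 4 and negative for 8 of 28 (14.2% and 16.3% of all genes), led by TNFRSF1A (-1.86 ± 0.16), RBCK1 (-1.63 ± 0.14) and CD40 (1.10 ± 0.18). With rapamycin, 6 of 29 were higher and 2 lower (12% and 12.6% of all genes), led by the TNF receptor TNFRSF1B (-1.34 ± 0.19). CD40, which activates both branches of the pathway in B cells, was thus among the largest changes of this list with tunicamycin and with ONC201 in both lines.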

How the data were processed

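Bead array intensities of 28 samples were deposited by the authors as uncorrected signals, each with its detection p-value (per the file headers), exported from GenomeStudio per the submitters' processing notes. A table of 38220 normalized intensities, also deposited by the authors, holds linear values whose normalization method is not given in the sources used here. The members and gene lists were chosen with earlier results of these data known.

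All 28 arrays were background-corrected and quantile-normalized together with neqc (limma 3.58.1, R 4.3.3; offset 16). The background was inferred from the detection p-values, whose steps imply 770 negative controls. Names came from the platform annotation, where 27004 probes have 1 symbol, 26970 of them updated by gene ID. Probes were kept if detected (p under 0.01) on no fewer arrays than the smallest compared group holds, and the brightest represented its gene. The offset compresses changes of dim probes. This left 8823 genes in the JeKo-1 course, 9453 in Z138, 9517 in the third experiment, 8600 across the JeKo-1 arrays and 8164 across all.

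Samples were grouped by title. Each of 15 comparisons was a limma contrast (lmFit, eBayes) with Benjamini-Hochberg adjustment over all genes tested and a threshold of 0.05, tested on simulated data. Values per array are given for NFKB1, NFKB2, RELB, NFKBIA and TNFAIP3 and for up to 4 called members with the largest rise and 4 with the largest fall per comparison, and up to 3 other pathway genes per comparison are named. Members described beyond that rule were chosen after their values were seen. The alternatives were an offset of 50, no background correction, the authors' normalized values (log2 with a pseudocount of 16), normalization within each experiment, no detection filter, the mean of a gene's detected probes, leaving out each array, and the replicate number as a block. Promoters came from RefSeq, and figures were drawn with matplotlib 3.10.9 (Python 3.11.15).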

Additional observations from a re-analysis of the deposited data

Results flagged for a closer look

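In Z138 the effect of ONC201 differed between resistant and parental cells, by limma's test of the difference, for 9 of 24 members. Of the members, 12.5% had a positive and 25% a negative difference, against 14.2% and 16.3% of all genes. The difference (resistant minus parental, log2) was 1.40 for IER3, 1.05 for CD83 and 0.74 for LTB, whose dimmer probe went the other way. It was -1.57 for PLEK, -0.78 for NFKB2, -0.76 for RELB, -0.74 for BCL3 and -0.58 for NFKBIB, whose call was lost without any of 4 arrays. The fitted value for REL was -0.75, which is no measured size because 2 of the 4 groups did not detect it, and its call was lost without any of 7 of the 8 arrays. REL passed the detection filter only with the parental ONC201 wells, so its call is not independent of the filter.

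Between 12 and 24 h of tunicamycin in JeKo-1 the level of 9 of 26 members differed, where 1.78% of all genes were lower and 2.27% higher, and 8 of the 9 calls were lost when some single array was left out. The change from 12 to 24 h was -1.20 for CCL3L3, -0.78 for BCL3, -0.73 for CD83, -0.68 for NFKB2, -0.63 for RELB, -0.51 for NFKBIA and -0.48 for IER3, and 0.73 for PLEK. CCL3 was not detected at 24 h, so its fitted value of -1.02 is no measured size, and it was at least 1.27-fold lower.

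The 24 h effect of ONC201 differed between JeKo-1 and parental Z138 for 6 of 20 members, near the share among all genes (13.7% positive and 13.6% negative), with the dose in JeKo-1 not given and its control taken at 0 h. The difference (JeKo-1 minus Z138) was 0.66 for PLEK, 0.51 for CD83 and 0.38 for IER3, and -0.81 for NFKBIZ, -0.72 for TNFAIP8 and -0.64 for CCL3. The calls of IER3 and TNFAIP8 were lost without any of 7 and any of 4 of the 10 arrays.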

How the results depend on the processing

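Of 875 values of called members under 6 processing alternatives, 830 kept their direction and their call, 45 kept the direction and lost the call, and 0 reversed. For ONC201 in resistant Z138 the count of 1 member became 3 with an offset of 50 and 3 without background correction, and 0 with normalization within the experiment, without the detection filter and without any 1 of the 4 arrays (0 to 0); all genes called there went from 46 (10 higher) to 454 (198 higher), 418 (176 higher) and 0. For ONC201 at 12 h the count of 2 became 1 without background correction and ran from 1 to 3 with 1 array left out, and the authors' normalized values called 271 genes (125 higher) against 337 (191 higher). For tunicamycin at 24 against 12 h the count of 9 became 5 without the detection filter and 2 to 4 with 1 array left out, and all genes called went from 385 to 671 with an offset of 50, 656 without background correction and 186 without the filter. For rapamycin the count of 10 fell to between 6 and 7 with 1 array left out. Untreated resistant against parental Z138 had 370 genes called, and 205 without the filter.

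With 1 array left out, all genes called fell to as few as 159 for ONC201 at 12 h (from 337), 106 for untreated Z138 (from 370), 1379 and 2016 for tunicamycin at 12 and 24 h (from 2429 and 3101), 1176 for rapamycin (from 2336) and 58 for tunicamycin at 24 against 12 h (from 385). A group left with 1 array was assumed to vary like the others. The cause of these changes was not tested, beyond the fewer arrays or the other set of genes tested.

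The replicate numbers did not pair the samples: deviations of same-numbered samples correlated between -0.19 and 0.10 in the JeKo-1 course, -0.07 and 0.08 in Z138 and -0.04 and 0.03 in the third experiment. With the replicate number as a block, 0 members and 0 genes were called in resistant Z138, 218 genes with ONC201 at 12 h, and the other counts of members moved by no more than 1. The standard deviation of an array from its group mean ran from 0.109 to 0.163 (log2), and members dim enough to sit near background have compressed changes.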
